A study of Mus musculus with 12 samples.

Results

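Somatostatin (Sst) is a neuropeptide hormone, and Sstr1, Sstr2, Sstr3 and Sstr4 encode 4 of its receptors. Their transcripts were followed through the hypothalamus of mice carrying 0, 1 or 2 mutant alleles of Wfs1, the gene for wolframin, which sits in the membrane of the endoplasmic reticulum and whose loss in humans causes Wolfram syndrome. The genes were taken by their symbols from a table of 24020 genes, in which all 5 were found, and 4 of them (Sst, Sstr1, Sstr2 and Sstr3) held enough counts for the default test. The mice came from the strain Wfs1tm1Koks and were wild-type (4 libraries), heterozygous (4) or homozygous (4) for the mutant allele. No treatment was named, and neither age nor sex is given in the labels used here. Libraries are named by genotype and label number (wild-type 1, 2, 3 and 5, heterozygous 1 to 4, homozygous 1, 2, 4 and 5). The homozygous column numbered 5 carries the genotype in its name but matches no library label, and the label numbered 3 has no column.

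In the hypothalamus, somatostatin neurons of the periventricular nucleus release the peptide into the portal blood, where it lowers the secretion of growth hormone from the pituitary. Other hypothalamic cells use it locally as an inhibitory transmitter, often together with GABA. The peptide is cut from a larger precursor in secretory granules, and its receptors couple to inhibitory G proteins that lower cyclic AMP, open inwardly rectifying potassium channels and close voltage-gated calcium channels. Transcription of Sst itself is a textbook target of cyclic AMP, through CREB bound to a cyclic AMP response element.

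That element is shown here because it is the known control site of the gene that turned out to differ between genotypes, and because a receptor gene carried the same letters. In the RefSeq promoters (build GRCm38.p6), the 250 bases before the start were searched on both strands for the full element, TGACGTCA, which reads the same on both. The full element is in capitals below, within 30 bases of the gene's own strand, 5′ to 3′. The first sequence lies at chr16:23890874-23890903 on the minus strand, with the element 48 to 41 bases before the start. The second lies at chr11:113619258-113619287 on the plus strand, with the element 58 to 51 bases before the start.
Sst: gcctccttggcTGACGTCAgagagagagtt
Sstr2: ccaagctgccgTGACGTCAcgggcgggggc

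The full element was found in 508 of 32851 promoter windows (1.55%), and in 2 of the 4 member genes with an entry. The shorter core TGACG, which also lies inside the full element, was found on either strand in 17.8% of windows, and Sstr3 held one 9 to 5 bases before one of its 2 starts. No member window held TATAAA, which 12.4% of all windows did. The gene model of GENCODE M21 starts Sst 114 bases further upstream than RefSeq does, so the element falls inside the first exon of that model. These are matches of letters, and no binding was measured.

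On the mouse build mm10 (GENCODE M21), Sst lies at chr16:23889573-23890958 on the minus strand (ENSMUSG00000004366.4). Sstr1 lies at chr12:58211772-58214444 on the plus strand (ENSMUSG00000035431.4). The annotation places Sstr2 at chr11:113619342-113626028 on the plus strand (ENSMUSG00000047904.6), where it overlaps Slc39a11 on the minus strand, so that reads of the pair cannot be told apart without strand. Sstr3 occupies chr15:78537008-78544685 on the minus strand (ENSMUSG00000044933.3). Sstr4 occupies chr2:148395344-148396767 on the plus strand (ENSMUSG00000037014.4). No other gene of the annotation overlaps the other 4.

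The libraries held between 979394 and 2330872 counts, which is shallow, and 10737 genes passed the default filter on low counts. Levels are given as CPM, the count of a gene relative to the total of its library, scaled by the trimmed mean of M-values, and differences come from edgeR's quasi-likelihood test with Benjamini-Hochberg adjustment over all genes tested. Wfs1 followed the labels: it fell from 146 ± 24.6 CPM without the mutant allele to 89.6 ± 9.28 with 1 and 17.1 ± 2.32 with 2 mutant alleles (SD, n = 4 each). Homozygous 4 and 5 stood apart in how counts depended on the GC content of genes. Their slopes were -0.46 and -0.51 on the log2 scale per 10 percentage points of GC. Homozygous 1 and 2 were at -0.03 and 0.02, heterozygous libraries at -0.02 to 0.21 and wild-type libraries at 0.03 to 0.32. Every homozygous slope was thus below every wild-type slope. A fit with the slope as a covariate therefore cannot fully separate the slope from genotype. The summed hypothalamic transcription factor markers ranged from 189 to 229 CPM in wild-type and from 233 to 282 CPM in homozygous libraries. Of these 14 markers, Otp and Rax averaged at most 1 count a library. Of 9 pituitary markers, 7 did so as well, among them Gh and Prl.

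Sst was higher in homozygous than in wild-type hypothalamus, by 2.05-fold (95% interval 1.51 to 2.77), and heterozygous libraries had a mean between those of the other genotypes. The 4 wild-type libraries, numbered 1, 2, 3 and 5, gave 71.1, 186, 128 and 177 CPM, from 97, 195, 176 and 285 counts. Heterozygous 1 to 4 gave 244, 177, 248 and 231 CPM, from 380, 425, 339 and 352 counts. Homozygous 1, 2, 4 and 5 gave 353, 319, 271 and 198 CPM, from 526, 710, 329 and 175 counts. Every homozygous library thus lay above every wild-type library, with homozygous 5 closest to them and wild-type 1 far below the other wild-type libraries. Among all genes tested, 11.8% had homozygous values that lay above the wild-type values without overlap. Heterozygous values overlapped with those of both other genotypes. In bulk tissue, a change in the number of somatostatin cells and in Sst RNA per cell cannot be told apart.

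The genotype means of Sst were 141 ± 52.7, 225 ± 32.8 and 285 ± 67.2 CPM in wild-type, heterozygous and homozygous libraries (SD, n = 4 each). Between homozygous and wild-type libraries the log2 fold change was 1.03 (SE 0.210, edgeR adjusted p = 0.00114). In that comparison 25.4% of all genes tested passed an adjusted p of 0.05, and Sst was the 1 that did among the 4 members tested, a share near that background. Between heterozygous and wild-type libraries, where 0.596% of genes passed, the log2 fold change was 0.68 (SE 0.210, 95% interval 0.25 to 1.11) and the adjusted p was 0.129 by edgeR. Between homozygous and heterozygous libraries, where 2.2% of genes passed, the log2 fold change was 0.35 (SE 0.203, 95% interval -0.07 to 0.77) and edgeR's adjusted p was 0.335. Fitted on the number of mutant alleles, where 25.7% of genes passed, Sst rose by 0.51 on the log2 scale per allele (SE 0.106, 95% interval 0.30 to 0.73, edgeR adjusted p = 0.00111).

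The difference between homozygous and wild-type libraries passed the test under each of 21 alternative settings, with log2 fold changes of 0.82 to 1.41. Without homozygous 4 and 5 it was 1.26 (edgeR adjusted p = 1.78e-05), and with the GC slope of each library as a covariate it was 1.41 (edgeR adjusted p = 0.00028). The heterozygous difference passed in 6 of the 21. Among them were the fit without homozygous 4 and 5 (0.68, edgeR adjusted p = 0.0146) and the fit with the GC covariate (0.81, edgeR adjusted p = 0.00834). Over all genes, 430 of 11335 and 260 of 10737 passed in these fits, against 64 of 10737 in the main fit. With 1 library left out, the heterozygous difference of Sst passed in 0 of 12 fits (0.46 to 0.84, edgeR adjusted p 0.0642 to 0.381). Without homozygous 4 and 5, homozygous libraries differed from heterozygous by 0.58.

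The ribosomal RNA row Rn45s also moved with genotype, from 1528 ± 454 CPM in wild-type (958 to 1983) through 474 ± 210 (352 to 788) to 212 ± 141 in homozygous libraries (85.8 to 352; SD, n = 4 each). Homozygous 4 and 5 had its 2 lowest values, and no homozygous library reached a wild-type one. The part of this shift in the Sst difference was not tested.

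**Figure D1:**
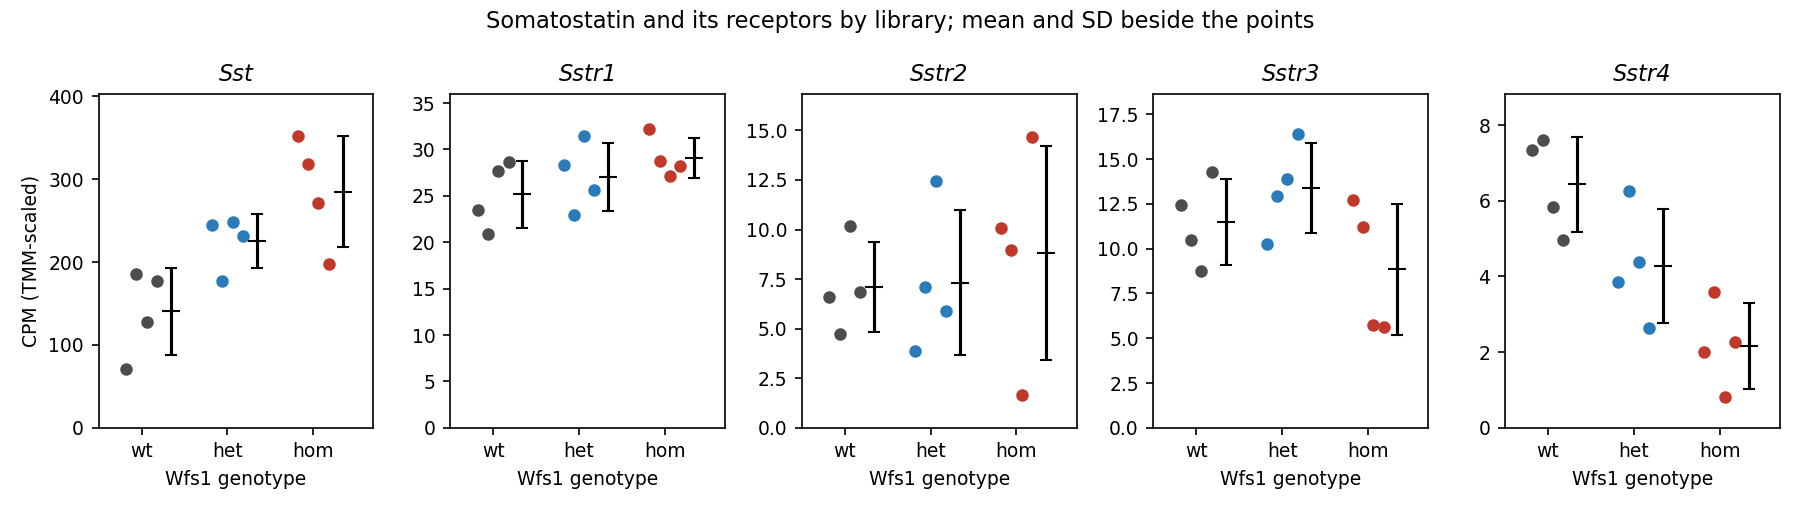
CPM (TMM-scaled, linear axes from 0) of Sst and its receptors in each library, by Wfs1 genotype (wt wild-type, het heterozygous, hom homozygous, n = 4 each), with the mean and SD beside the points. Sst runs from 71.1 to 353 CPM with no overlap between wild-type and homozygous libraries, whereas the points of Sstr1, Sstr2 and Sstr3 overlap between genotypes.

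Among neuropeptide genes Sst was abundant. Of 25 neuropeptide genes it ranked 2nd by mean CPM in each genotype, below Pmch, the precursor of melanin-concentrating hormone, and above Penk, the enkephalin precursor. The rank was the same by CPM per kilobase of exon, on which scale the Sst mean was 301 ± 108 over the 12 libraries (SD).

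Sst was also set against genes that somatostatin neurons share with other neurons, in the same library, which needs no scaling between libraries. The first denominator was the sum of Gad1, Gad2 and Slc32a1, the enzymes that make GABA and its vesicular transporter. Per 100 counts of these genes, wild-type 1, 2, 3 and 5 held 3.96, 11.7, 7.45 and 10.5 counts of Sst. Heterozygous 1 to 4 held 12.8, 10.9, 13.9 and 11.6. Homozygous 1, 2, 4 and 5 held 19.2, 19.1, 10.9 and 6.69. Homozygous 1 and 2 were thus above all other libraries, while homozygous 4 and 5 lay within the wild-type range.

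On this ratio the homozygous mean was 14.0 ± 6.22 and the wild-type mean 8.39 ± 3.45 (SD, n = 4 each). The log2 difference of 0.72 did not pass a two-sided exact permutation test (p = 0.229, adjusted p = 0.343 over 3 genotype pairs), for which the smallest p with 4 against 4 is 0.0286. It ranged from 0.40 (without wild-type 1) to 1.03 with 1 library left out, and was 1.30 without homozygous 4 and 5. The heterozygous mean was 12.3 ± 1.31, a log2 difference from wild-type of 0.66 (exact permutation p = 0.0857, adjusted p = 0.257), and of 0.34 without wild-type 1. Homozygous and heterozygous libraries differed by 0.06 on the log2 scale (exact permutation p = 0.914). Part of the denominator moved too: Gad2 was higher in homozygous libraries (1904 ± 569 against 1312 ± 53.8 CPM, log2 fold change 0.54, SE 0.147, edgeR adjusted p = 0.0101). Without homozygous 5 it was 0.35 (edgeR adjusted p = 0.0555), without homozygous 4 and 5 it was 0.14 (edgeR adjusted p = 0.455), and with the GC covariate it turned to -0.07 (edgeR adjusted p = 0.838). Gad1, which shares its locus with an antisense gene, was lower (257 ± 33.3 against 327 ± 38.5 CPM, -0.35, SE 0.124, edgeR adjusted p = 0.0389). That call ended in 12 of 21 alternatives, over which the log2 fold change ran from -0.56 to -0.28. It held without homozygous 4 and 5 (-0.50, edgeR adjusted p = 0.0108) and with the GC covariate (-0.56, edgeR adjusted p = 0.0223). Slc32a1 did not pass (0.28, edgeR adjusted p = 0.276).

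Against 9 pan-neuronal genes, Sst counts per 100 were 0.786, 2.00, 1.66 and 2.05 in wild-type 1, 2, 3 and 5. They were 2.84, 2.07, 2.51 and 2.55 in heterozygous 1 to 4, and 3.67, 2.88, 2.73 and 1.93 in homozygous 1, 2, 4 and 5. All heterozygous libraries lay above all wild-type libraries, by a small margin at the closest pair, and homozygous 5 fell among the wild-type values. The heterozygous log2 difference from wild-type was 0.71 (exact permutation p = 0.0286, the smallest this design gives, adjusted p = 0.0857). The homozygous log2 difference was 0.84 (exact permutation p = 0.0857, adjusted p = 0.129), so neither difference passed after adjustment. Without wild-type 1 these differences were 0.39 and 0.53. This denominator moved too, with 4 of the 9 genes higher and 1 lower in homozygous than in wild-type libraries. Snap25 rose from 2873 ± 348 to 4372 ± 779 CPM (0.61, edgeR adjusted p = 0.00103), and was at 0.25 with the GC covariate (edgeR adjusted p = 0.281). Syp went the other way, from 3016 ± 375 to 2207 ± 815 CPM (-0.45, edgeR adjusted p = 0.0575). The part of these shifts in the ratio was not tested.

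**Figure D2:**
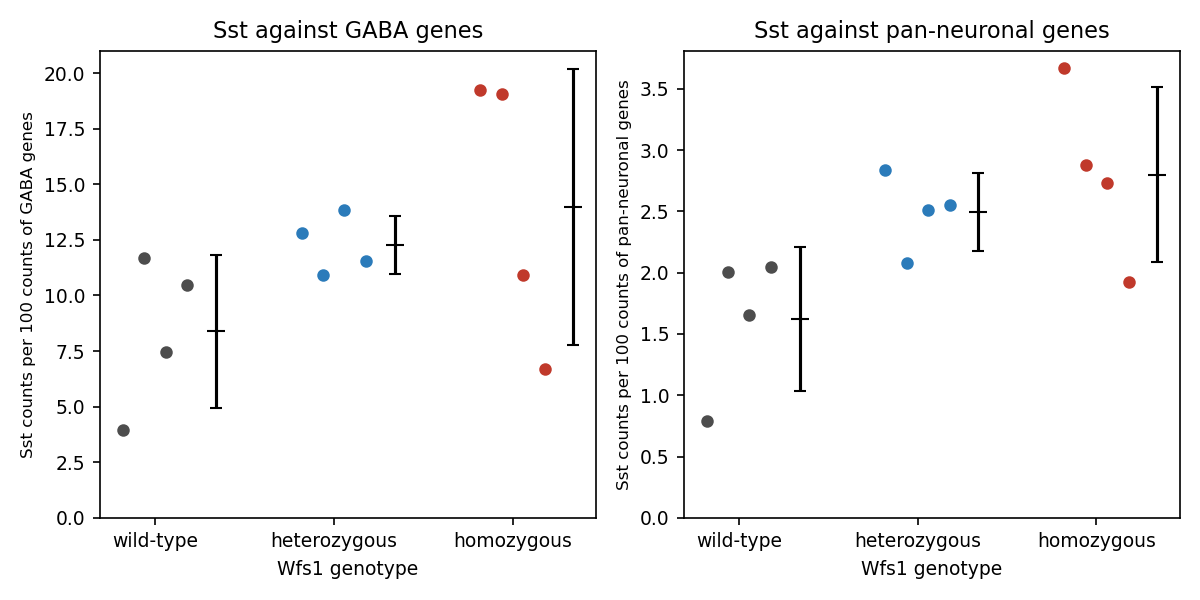
Counts of Sst per 100 counts of GABA genes (left: Gad1, Gad2 and Slc32a1) or of 9 pan-neuronal genes (right) in each library, by Wfs1 genotype, with the mean and SD (n = 4 each). On the left, 2 homozygous libraries sit near 19 and the others, at 10.9 and 6.69, inside the wild-type range.

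Markers of tissue next to the hypothalamus were followed in the same libraries, since Sst is also made by interneurons of the telencephalon. Summed CPM of 13 telencephalic markers ranged from 280 to 358 in wild-type, 296 to 353 in heterozygous and 325 to 524 in homozygous libraries, with Emx1 at no more than 1 count a library on average. The 9 thalamic markers ranged from 810 to 1035 in wild-type, 902 to 1258 in heterozygous and 970 to 1314 in homozygous libraries. Their most abundant member, Slc17a6, was at 366 ± 52.5 CPM in wild-type and 532 ± 131 in homozygous libraries. Between these genotypes, 3 of the 9 were higher and 0 lower by edgeR, against 13.7% and 11.6% of all genes. Of 10 telencephalic markers tested, 1 was higher (Camk2n1, from 171 ± 36.3 to 302 ± 83.6 CPM) and 0 lower. In homozygous 1, 2, 4 and 5 the telencephalic sums were 325, 435, 524 and 464, the last 3 above every wild-type library. The part of these sums in the Sst difference was not tested. Lhx6, a transcription factor of telencephalic somatostatin interneurons, stood at 22.6 ± 1.64, 15.7 ± 4.25 and 14.1 ± 3.64 CPM in wild-type, heterozygous and homozygous libraries (homozygous against wild-type -0.66, edgeR adjusted p = 0.0562).

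Sstr1, a receptor found widely on neurons, was the most abundant of the 4 receptor genes and did not pass the test between genotypes. Its level was 23.5, 20.9, 27.7 and 28.6 CPM in wild-type 1, 2, 3 and 5, and 28.3, 22.9, 31.5 and 25.6 CPM in heterozygous 1 to 4. In homozygous 1, 2, 4 and 5 it was 32.2, 28.7, 27.2 and 28.2 CPM. The 3 genotypes overlapped, with means of 25.2 ± 3.60, 27.1 ± 3.67 and 29.1 ± 2.17 CPM (SD, n = 4 each) from 22 to 64 counts a library. The homozygous difference from wild-type was 0.20 on the log2 scale (SE 0.194, 95% interval -0.20 to 0.60, edgeR adjusted p = 0.478), and the difference between Sstr1 and Sst was not itself tested. The heterozygous difference from wild-type was 0.08 (95% interval -0.32 to 0.48), and that between homozygous and heterozygous libraries 0.12 (95% interval -0.27 to 0.51).

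Sstr2, the receptor through which somatostatin analogs used as drugs mostly act, rested on 2 to 20 counts a library. Wild-type 1, 2, 3 and 5 gave 6.60, 4.76, 10.2 and 6.84 CPM, and heterozygous 1 to 4 gave 3.86, 7.09, 12.5 and 5.91 CPM. Homozygous 1, 2, 4 and 5 gave 10.1, 8.98, 1.65 and 14.7 CPM. The lowest and the highest value of all 12 libraries were thus both homozygous, and the genotypes overlapped throughout. The log2 difference between homozygous and wild-type libraries was 0.26 (SE 0.439, 95% interval -0.65 to 1.17, edgeR adjusted p = 0.703), an interval that holds both 0 and the estimate for Sst. With 1 library left out it ranged from 0.02 (without homozygous 5) to 0.57 (without homozygous 4), and limma-voom gave 0.04. The heterozygous interval ran from -0.94 to 0.95.

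Sstr3, a receptor known from neuronal cilia, gave 12.5, 10.5, 8.74 and 14.3 CPM in wild-type 1, 2, 3 and 5. It gave 10.3, 12.9, 13.9 and 16.4 CPM in heterozygous 1 to 4, and 12.7, 11.2, 5.77 and 5.64 CPM in homozygous 1, 2, 4 and 5. Homozygous 4 and 5 were the lowest of all libraries, and homozygous 1 and 2 lay among the wild-type values. The homozygous difference from wild-type was -0.31 on the log2 scale (SE 0.313, 95% interval -0.95 to 0.34, edgeR adjusted p = 0.504). It ranged from -0.49 to -0.15 with 1 library left out and was 0.04 without homozygous 4 and 5 (edgeR adjusted p = 0.960) and 0.12 with the GC covariate (edgeR adjusted p = 0.912). Heterozygous libraries differed from wild-type by 0.20 (95% interval -0.40 to 0.80) and homozygous from heterozygous by -0.51 (95% interval -1.12 to 0.11).

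Sstr4, a receptor of forebrain neurons, did not pass the default filter, with 34 counts in all wild-type, 31 in all heterozygous and 14 in all homozygous libraries. It was tested with a looser filter of 1 CPM in at least 4 libraries, which kept 14359 genes. Wild-type 1, 2, 3 and 5 gave 7.33, 7.61, 5.83 and 4.97 CPM, heterozygous 1 to 4 gave 3.86, 6.26, 4.39 and 2.63 CPM, and homozygous 1, 2, 4 and 5 gave 2.01, 3.59, 0.824 and 2.26 CPM. Every homozygous library lay below every wild-type library, as was the case for 10.1% of the genes under this filter. From wild-type through heterozygous to homozygous, Sstr4 averaged 6.44 ± 1.25, 4.28 ± 1.51 and 2.17 ± 1.14 CPM (SD, n = 4 each).

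Under that filter 18.4% of genes passed between homozygous and wild-type libraries, and Sstr4 passed with a log2 fold change of -1.37 (SE 0.478, 95% interval -2.35 to -0.40, edgeR adjusted p = 0.0437). The call held in 5 of the 12 fits that each left out 1 library, whose adjusted p ran from 0.0222 to 0.123. It ended without homozygous 4 and 5 (-1.08, edgeR adjusted p = 0.223), with the GC covariate (-0.90, edgeR adjusted p = 0.573) and with DESeq2 (-1.43, adjusted p = 0.0715). Heterozygous libraries differed from wild-type by -0.49 (95% interval -1.34 to 0.36), where 0.585% of genes passed under this filter. Homozygous differed from heterozygous libraries by -0.88 (95% interval -1.88 to 0.12), where 1.76% of genes passed. Per mutant allele, where 18.6% of genes passed, the slope of Sstr4 was -0.66 (SE 0.231, edgeR adjusted p = 0.0431).

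**Figure D3:**
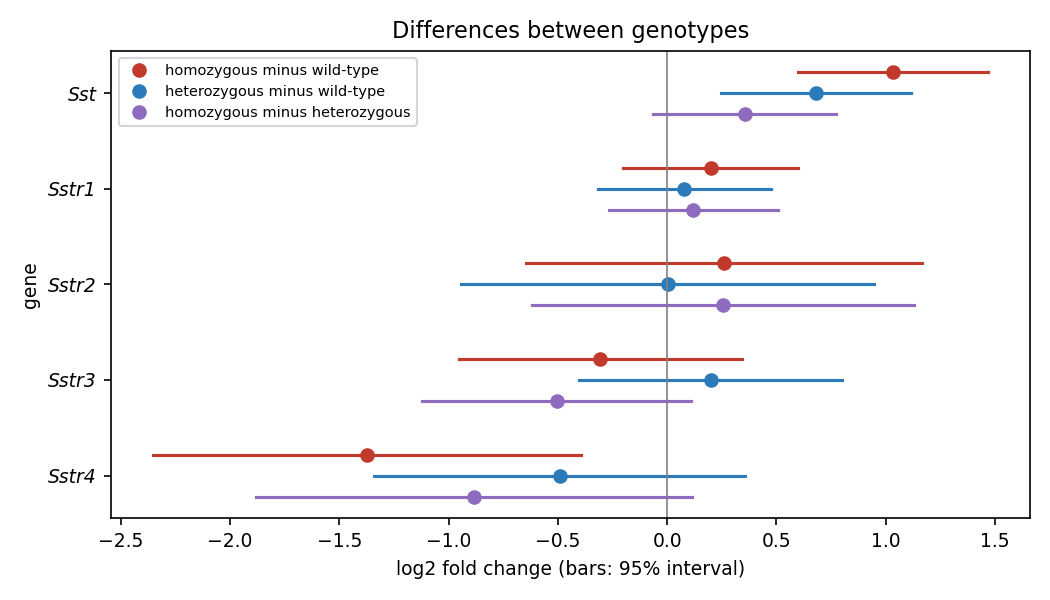
Log2 fold changes of the 5 genes between Wfs1 genotypes with 95% intervals (edgeR, n = 4 libraries each; Sstr4 from the fit with the looser filter). The interval of Sst between homozygous and wild-type libraries runs from 0.60 to 1.47, and those of Sstr1, Sstr2 and Sstr3 span 0 in all 3 comparisons.

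Per kilobase of exon, which allows levels of different genes to be compared, Sstr1 stood at 13.3 ± 1.64 CPM per kb over the 12 libraries (SD, range 10.2 to 15.7). Over the same libraries Sstr2 stood at 3.62 ± 1.72 (range 0.769 to 6.85), Sstr4 at 3.02 ± 1.52 (0.579 to 5.35) and Sstr3 at 2.60 ± 0.761 (1.31 to 3.80). The lowest library of Sstr1 was above the highest of every other receptor gene, while the ranges of Sstr2, Sstr4 and Sstr3 overlapped. The order of these 3 means differed between genotypes. In wild-type libraries Sstr4 (4.52 ± 0.879 CPM per kb) was above Sstr2 (3.31 ± 1.06) and Sstr3 (2.66 ± 0.558), and in homozygous libraries Sstr4 (1.52 ± 0.797) was below Sstr3 (2.05 ± 0.851) and Sstr2 (4.13 ± 2.52; SD, n = 4 each). The receptor Sstr5 and the related peptide gene Cort were at the limit of these libraries. Cort, which encodes cortistatin, a ligand of the same receptors, had 3 counts in all with 9 libraries at 0, and Sstr5 had 8 counts with 6 libraries at 0. A count of 0 allows up to 3 counts, or 1.29 CPM in the deepest and 3.06 CPM in the shallowest library, for counting error only.

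**Figure D4:**
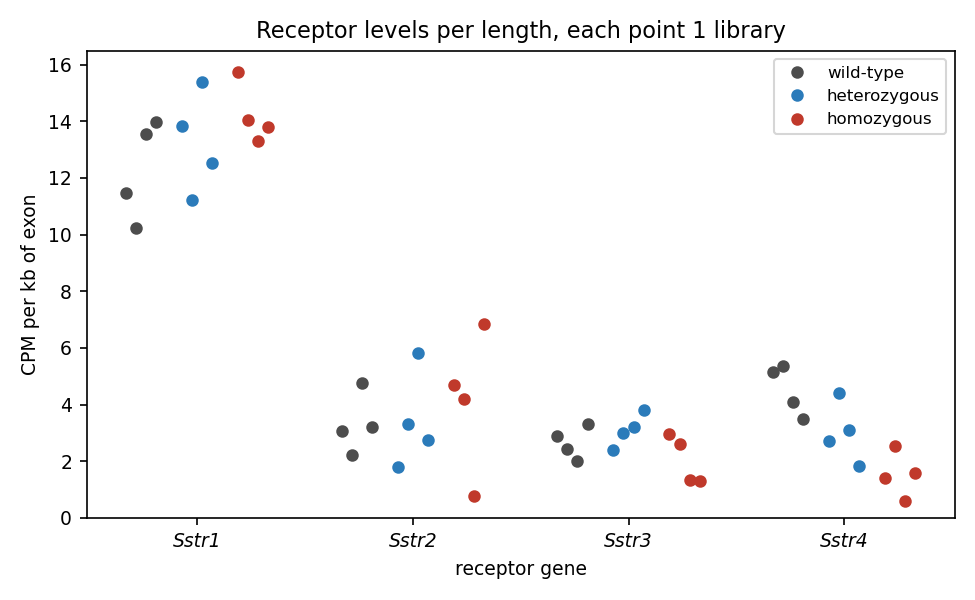
CPM per kb of exon of the 4 receptor genes, each point 1 library, coloured by Wfs1 genotype (linear axis from 0). All Sstr1 points lie between 10.2 and 15.7, above every point of Sstr2, Sstr3 and Sstr4.

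The genes around somatostatin signalling were taken as 7 lists together with Cort and Sstr5. This gave 112 genes in the table, of which 96 were tested. Between homozygous and wild-type libraries 13 of the 96 were higher and 19 lower, with a median log2 fold change of -0.09. Over all genes tested, 13.7% were higher and 11.6% lower, with a median of -0.03. Against wild-type, heterozygous libraries were higher in 3 of the 96 (Chgb, Gnai1 and Nefm) and lower in none by edgeR, against 0.512% higher and 0.0838% lower over all genes. At an unadjusted p under 0.05, 14 were lower, and 2 were called lower with DESeq2 and 4 with limma-voom. Over all genes and in either direction, DESeq2 called 238 of 17887 and limma-voom 394 of 10737, against 64 of 10737 by edgeR. The share of all genes at the unadjusted p was not counted. Homozygous exceeded heterozygous libraries in 2 (Gnai1 and Nefl) and were lower in none by edgeR, against 1.74% higher and 0.456% lower over all genes. At an unadjusted p under 0.05, 11 were lower, and neither DESeq2 nor limma-voom called any lower. In this comparison DESeq2 called 449 of 17887 genes and limma-voom 79 of 10737 in either direction.

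Of 10 genes for the cutting and storage of peptide precursors, 2 were higher and 3 lower in homozygous libraries (median -0.23). Chgb, a granin of secretory granules, rose with genotype from 658 ± 188 through 1103 ± 199 to 1432 ± 95.6 CPM (homozygous against wild-type 1.12, SE 0.154, edgeR adjusted p = 2.43e-05). Scg2, another granin, rose from 1844 ± 171 to 2891 ± 412 CPM (0.65, SE 0.119, edgeR adjusted p = 0.000481). Chga, the third granin, fell from 102 ± 14.6 to 63.3 ± 12.9 CPM (-0.66, SE 0.182, edgeR adjusted p = 0.00985), and Furin, a precursor convertase of the Golgi, from 13.6 ± 4.13 to 5.14 ± 2.09 CPM (-1.26, SE 0.356, edgeR adjusted p = 0.0117). Without homozygous 4 and 5 Chga was at -0.45 and Furin at -0.93 (edgeR adjusted p 0.103 and 0.111), and with the GC covariate at -0.17 and -0.43 (adjusted p 0.707 and 0.669), while those of Chgb and Scg2 passed in all 21 alternatives. Pcsk1, Pcsk2 and Cpe, the enzymes that trim neuropeptides in granules, did not pass (log2 fold changes -0.46, 0.15 and 0.32).

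Of 24 genes tested that carry the receptors' signal, 3 were higher and 6 lower (median -0.15). Gnai1, an inhibitory G protein subunit, rose from 477 ± 59.9 through 805 ± 144 to 1160 ± 156 CPM (1.28, SE 0.135, edgeR adjusted p = 1.48e-06), in all 21 alternatives. Its relative Gnai2 fell from 230 ± 27.4 to 107 ± 43.5 CPM (-1.06, SE 0.193, edgeR adjusted p = 0.000445), and Gnao1 was higher (0.41, edgeR adjusted p = 0.00537). With the GC covariate Gnai2 was at -0.33 (edgeR adjusted p = 0.213) and Gnao1 at 0.28 (edgeR adjusted p = 0.197). The other inhibitory subunits tested, Gnai3 and Gnaz, did not pass (0.31 and 0.14, edgeR adjusted p 0.313 and 0.644). Adcy5, an adenylyl cyclase that inhibitory G proteins restrain, rose from 77.6 ± 20.3 to 139 ± 26.2 CPM (0.83, SE 0.176, edgeR adjusted p = 0.00153). With the GC covariate it was 0.72 (edgeR adjusted p = 0.0524). Cacna1b, the pore of the N-type calcium channel, fell from 103 ± 20.4 to 55.5 ± 16.6 CPM (-0.85, SE 0.192, edgeR adjusted p = 0.00245). With the GC covariate it was -0.33 (edgeR adjusted p = 0.411). Kcnj3, a subunit of the inwardly rectifying channel, was lower (-0.76, edgeR adjusted p = 0.0078), at -0.59 without homozygous 4 and 5 (edgeR adjusted p = 0.0763) and -0.46 with the GC covariate (edgeR adjusted p = 0.340). Its partners Kcnj6 and Kcnj9 did not pass (-0.07 and 0.16). Kcnj5, another partner, went the other way and did not pass either (0.59, edgeR adjusted p = 0.0541).

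Of 16 genes tested among regulators of Sst transcription, 1 was higher and 2 lower (median 0.16). The factor that binds the element printed above, Creb1, was at 100 ± 13.5 CPM in wild-type and 97.6 ± 10.5 in homozygous libraries (-0.04, edgeR adjusted p = 0.846). Its coactivators Crtc1 (-0.68, edgeR adjusted p = 0.0315) and Crtc2 (-0.94, edgeR adjusted p = 0.0278) were lower. These calls ended in 7 and 8 of 21 alternatives. Without homozygous 4 and 5 Crtc1 was at -0.33 and Crtc2 at -0.56 (edgeR adjusted p 0.298 and 0.239). With the GC covariate Crtc1 turned to 0.07 and Crtc2 was at -0.28 (edgeR adjusted p 0.906 and 0.748). The call of Crtc1 also ended without any one of wild-type 2 and 3 and homozygous 4 and 5 (-0.63 to -0.49), and that of Crtc2 without any one of wild-type 2 and 5 and homozygous 4 and 5 (-0.85 to -0.75).

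Among 16 genes found in somatostatin and GABA neurons, 2 were higher and 3 lower (median 0.10). Npy, Nos1, Calb1, Crhbp and Chodl, which mark subsets of somatostatin cells, did not pass (log2 fold changes 0.03, -0.33, -0.22, 0.15 and 0.43). Tac1 and Elfn1, of the same list, did not pass either (0.53 and 0.50, edgeR adjusted p 0.0529 and 0.0694). Nor did Calb2, Grin3a and Cbln4 (0.15, -0.19 and 0.05). Pdyn, the dynorphin precursor, was lower in both mutant genotypes, at 9.74 ± 2.73, 2.68 ± 1.67 and 2.85 ± 1.54 CPM, and passed in homozygous libraries (-1.63, SE 0.457, edgeR adjusted p = 0.0115), though not without homozygous 4 and 5 (-1.34, edgeR adjusted p = 0.0818). Reln, an extracellular protein of interneurons, fell (-0.50, SE 0.141, edgeR adjusted p = 0.0119), and was about as large without homozygous 4 and 5 (-0.42, edgeR adjusted p = 0.0834). Penk rose from 137 ± 13.0 to 186 ± 23.3 CPM (0.44, SE 0.135, edgeR adjusted p = 0.0193), and was about as large without homozygous 4 and 5 (0.42, edgeR adjusted p = 0.0545), without wild-type 1 (0.38, edgeR adjusted p = 0.0603) or without homozygous 4 (0.37, edgeR adjusted p = 0.0696). With the GC covariate Pdyn was at -1.21, Reln at -0.39 and Penk at 0.38 (edgeR adjusted p 0.303, 0.242 and 0.215).

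Of the 8 genes tested of the growth hormone axis, which somatostatin restrains, none was higher and 2 were lower by edgeR (median -0.15). Stat5b, a transcription factor downstream of the growth hormone receptor, fell from 43.0 ± 9.08 to 20.5 ± 1.77 CPM (-1.05, SE 0.195, edgeR adjusted p = 0.000528), and was at -0.86 with the GC covariate (edgeR adjusted p = 0.0626). Igfbp5, which binds insulin-like growth factors, fell from 330 ± 55.0 to 226 ± 55.0 CPM (-0.53, SE 0.150, edgeR adjusted p = 0.0123). It was at -0.37 without homozygous 4 and 5 (edgeR adjusted p = 0.0828), -0.40 without wild-type 2 (edgeR adjusted p = 0.0671) and -0.27 with the GC covariate (edgeR adjusted p = 0.423). Ghrh, the releasing hormone that acts against somatostatin, was at 17.2 ± 3.71 and 14.7 ± 4.05 CPM (-0.25, edgeR adjusted p = 0.539). Ghr, the growth hormone receptor (0.46, edgeR adjusted p = 0.0575), and Igf1 (0.64, edgeR adjusted p = 0.0847) did not pass. These 2 were the ones higher at an unadjusted p under 0.05, and neither DESeq2 nor limma-voom called any gene of the list higher.

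Of 18 other neuropeptide genes tested, 2 were higher and 3 lower (median -0.28). Cck, the cholecystokinin precursor, rose from 37.8 ± 4.49 to 79.3 ± 30.7 CPM (1.08, SE 0.240, edgeR adjusted p = 0.00238), and Trh, the precursor of thyrotropin-releasing hormone, fell from 68.1 ± 15.2 to 32.1 ± 3.56 CPM (-1.08, SE 0.181, edgeR adjusted p = 0.00021). Both passed in all 21 alternatives. Of the 9 pan-neuronal genes 4 were higher and 1 lower. The neurofilament genes Nefl (1.07, SE 0.134, edgeR adjusted p = 1.16e-05) and Nefm (1.64, SE 0.218, edgeR adjusted p = 1.72e-05) rose, and Eno2, an enolase of neurons, fell (-0.45, SE 0.107, edgeR adjusted p = 0.00389), and was at -0.32 with the GC covariate (edgeR adjusted p = 0.159).

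**Figure D5:**
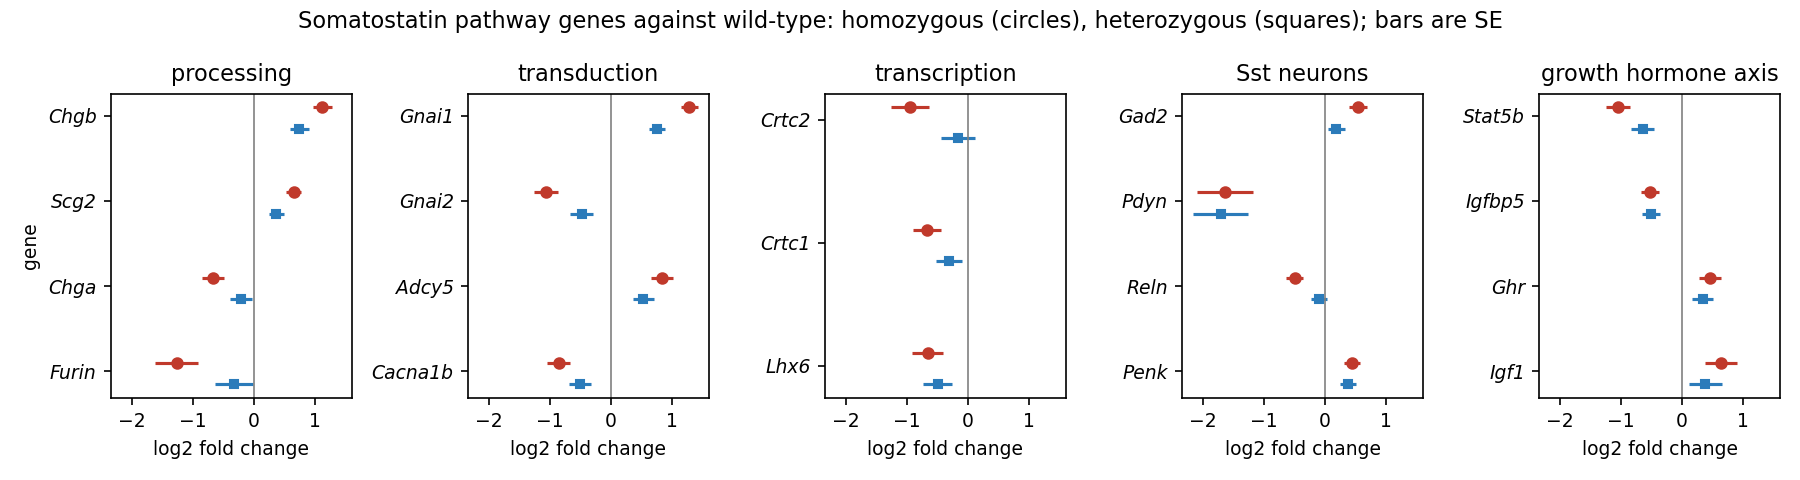
Log2 fold changes against wild-type with SE of up to 4 genes from each of 5 lists around somatostatin, taken by the smallest p, in homozygous (circles) and heterozygous (squares) libraries. Chgb and Gnai1 lie at 1.12 and 1.28 in homozygous libraries, and Gnai2 at -1.06.

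Of 9936 genes at a mean of 5 CPM or more, the 6 whose log2 CPM followed that of Sst most closely over the 12 libraries were Thap4, Ywhae, Eif2s2, Sparcl1, Kpna4 and Ankrd11. Their Pearson r ran from 0.946 for Thap4 to 0.902 for Ankrd11, and from 0.724 for Eif2s2 to 0.914 for Sparcl1 without the 2 libraries farthest from the median of Sst. These points share genotype, depth and base composition, and all 6 genes were themselves higher in homozygous than in wild-type libraries by edgeR. With the genotype mean taken from each gene, the 6 closest included Wnt2b (r = 0.916), Ddx19a, Prpf6, Thap4 and Myc (r = 0.885). Thap4 was thus in both sets. With genotype means left in, r was 0.488 for Wnt2b, 0.573 for Prpf6, 0.806 for Myc and 0.854 for Ddx19a. Without the 2 libraries farthest from the median of Sst, these were 0.233, 0.140, 0.700 and 0.714. The r after genotype means was not computed without those libraries. For the receptors, r with Sst over the 12 libraries was 0.55 for Sstr1, -0.05 for Sstr2 and -0.04 for Sstr3.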

How the data were processed

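Hypothalamus RNA (50 ng total RNA, NuGEN Ovation RNA-Seq System V2, SOLiD 5500xl, 75 and 35 bp pairs) was measured in 12 libraries, per the labels. The authors deposited raw read counts per gene symbol. Per the submitters' processing notes, reads were placed on mm10. Aligner, counter, annotation and strand: not given in the sources used here. Since the design text counts individuals, each library was taken as 1 animal, and the lowest chi-square per degree of freedom between 2 libraries of a genotype was 1.86. The growth protocol names 5 hypothalamus animals, the design 4 per genotype.

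From the counts, edgeR 4.0.16 (R 4.3.3; filterByExpr, TMM, quasi-likelihood F test, all 12 libraries in 1 fit on genotype, Benjamini-Hochberg) tested 10737 genes at an adjusted p of 0.05. The fit was tested on simulated data. CPM used TMM-scaled library sizes. Ratios of Sst were compared by two-sided exact permutation tests. Alternatives were DESeq2 1.42.0, limma 3.58.1 voom, other filters and scalings, left-out libraries, a replicate block and each library's GC slope as a covariate.

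The genes and lists were chosen with earlier results of these data known. Named genes are the members, up to 4 per list by smallest p between homozygous and wild-type, and the 6 genes most like Sst, with and without genotype means; 2 genes that this rule names are not reported here. Further list genes in the text (Gnao1, Kcnj3, Kcnj6, Kcnj9, Pcsk1, Pcsk2, Cpe, Creb1, Ghrh, Npy, Nos1, Calb1, Crhbp and Chodl) were chosen for their known role after their values were seen. Kcnj5, Tac1, Elfn1, Calb2, Grin3a, Cbln4 and Syp are given beside them, also after their values were seen. Endothelial, microglial, astrocyte and oligodendrocyte markers summed to 222 to 265, 273 to 314, 4666 to 5797 and 3599 to 4478 CPM in wild-type libraries. In homozygous libraries they summed to 184 to 214, 281 to 322, 5433 to 6884 and 2559 to 4070 CPM.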

Additional observations from a re-analysis of the deposited data

How the results depend on the processing

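The Sst difference between homozygous and wild-type libraries kept its direction and its side of the threshold in all 21 alternatives, and the slope per allele in all 20. The heterozygous difference of Sst passed the threshold with limma-voom (0.76), no filter (0.70), without homozygous 4 and 5 (0.68), in the 2 genotypes alone (0.69), with the GC covariate (0.81) and with the replicate block (0.88, adjusted p = 0.0356). Over all genes, between 163 (replicate block) and 430 (without homozygous 4 and 5) passed in these settings, against 64 in the main fit. The labels do not say whether libraries with the same number are paired. Of 8 same-numbered pairs, 1 had a correlation of deviations over 0.1 (heterozygous 2 with homozygous 2, range -0.27 to 0.34). These correlations cannot decide whether the libraries are paired. With the block Sst was 1.39 between homozygous and wild-type libraries (adjusted p = 0.000431).

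The call of Sstr4 between homozygous and wild-type libraries ended with DESeq2 (-1.43), no filter (-1.37), limma-voom (-1.34), the replicate block (-1.42), the 2 genotypes alone (-1.38), without homozygous 4 and 5 (-1.08) and with the GC covariate (-0.90), and ranged from -1.85 to -1.15 with 1 library left out. Its slope per allele (-0.66, edgeR adjusted p = 0.0431) ended with DESeq2 (-0.69), no filter (-0.66), limma-voom (-0.60), the block (-0.68), without homozygous 4 and 5 (-0.53) and with the GC covariate (-0.42), and ranged from -0.80 to -0.57 with 1 library left out. For Sstr3, the homozygous difference turned to 0.0384 without homozygous 4 and 5 and to 0.12 with the GC covariate, and the slope to 0.0382 and 0.10. The heterozygous difference of Sstr2, at 0.0033, turned to -0.17 with limma-voom and ranged from -0.32 to 0.23 with 1 library left out. The cause was not tested.

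Pathway genes called higher, 13 in all, ranged from 11 to 21 with 1 library left out (21 without homozygous 2) and were 8 with the GC covariate. Those called lower, 19 in all, ranged from 13 to 20 in the same fits. They were 10 without homozygous 4 and 5, 12 with the replicate block and 5 with the GC covariate. Over all genes, calls in either direction moved as well, from 2723 of 10737 to 3076 of 10814 without homozygous 2. They were 1344 of 11335 without homozygous 4 and 5, 1308 of 10737 with the block and 462 of 10737 with the GC covariate. With 1 library left out, the homozygous minus heterozygous log2 ratio of Sst ranged from -0.13 to 0.38 against GABA genes and from -0.0036 to 0.31 against pan-neuronal genes. By Spearman's rho, 2 of the 6 genes most like Sst were shared. At 2 to 20 counts of Sstr2 and 1 to 15 of Sstr4 a library, counting error limits both genes.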
